A study of Mus musculus with 14 samples.

Results

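The livers of obese mice given canagliflozin were compared with the livers of obese mice brought to the same weight by eating less. Canagliflozin blocks the sodium-glucose cotransporter SGLT2 of the kidney, so that glucose is lost in the urine. The comparison used 10 of the 14 arrays of the series, chosen by their titles: 5 arrays of canagliflozin livers and 5 of livers from calorie-restricted, weight-matched mice. All mice were male C57Bl/6J that started at 6 weeks of age on a diet with 60% fat, eaten freely for 4 weeks to make them obese. For the following 4 weeks the first group stayed on that high-fat diet (HFD) with canagliflozin at 30 mg per kg on the sample labels (25 to 30 mg per kg in the protocol), and the second was held to the weight of the first by a 15 to 30% cut in calories. A further 4 arrays came from mice kept on the high-fat diet alone. Those controls shared one estimate of the spread with both groups and are given beside some results. No lean, untreated group was among the samples used here, so every group carried the high-fat diet. The labels do not say array by array that each came from a separate mouse, so p-values measure the spread between these samples.

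Between meals and in fasting the liver changes from storing fuel to releasing it. Low insulin lets FOXO transcription factors switch on genes of glucose output, fatty acids activate the receptor PPARα and with it fat burning and ketone production, and the insulin- and sugar-driven factors SREBP-1c and ChREBP, which run glycolysis and fat synthesis, go quiet. A drug that drains glucose and a diet that supplies fewer calories both lower the fuel reaching the liver, and comparing them at matched weight addresses what the drug does beyond weight loss.

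Expression was read as log2 values per probe set after RMA (robust multi-array average), which corrects background, gives all arrays the same distribution and summarises the probes of a set. Each of 22180 genes was represented by its brightest probe set, and values of different genes are not on a common scale. Array medians over all probe sets lay between 4.07 and 4.13, and any pair of arrays correlated across the 22180 genes at 0.986 to 0.992. Of 10 hepatocyte markers, 9 were measured, and their mean level was 12.47 to 12.55 on the canagliflozin arrays and 12.51 to 12.57 on the restriction arrays. In bulk liver, fewer cells of a type and less RNA per cell cannot be told apart. One array stood apart in the genes described here. Canagliflozin replicate 3 was the drug array nearest the restriction mean in 41 of the 65 genes picked out by rule, against 5 to 8 for each of the other drug arrays. Over all genes it was nearest in 20.8%, and the other drug arrays in 18.9 to 20.4%. For some genes and lists, chiefly genes that passed the test only without it, values are given with and without it. The array was singled out after its values in these genes were seen. Leaving out the drug array nearest the restriction mean widens a difference, so calls made only without that array follow partly from the choice. Such calls are given as description.

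The canagliflozin livers differed from the restricted livers beyond the spread between arrays in 1 gene. Rtkn, lower under the drug, was the gene with a limma adjusted p under 0.05, which is 0.00451% of the genes tested, and no gene was called higher. At an unadjusted p under 0.05 there were 1341 genes (6.05%), 680 of them higher (3.07%) and 661 lower (2.98%), where 1109 are expected by chance. These shares stand beside the counts of every gene list below. The lists were chosen with earlier results of these data known, so a count above the share describes a list and does not test it. All 5 drug arrays lay above all 5 restriction arrays in 97 genes (0.437%) and below them in 109 (0.491%). The median difference over all genes was -0.0032, and the median gene had an unadjusted 95% interval of 0.24 to either side of its estimate. A gene-wise difference much smaller than that was not detectable with these numbers of arrays. Calls were adjusted over all genes tested, so a typical gene needed a larger difference than that width to be called. Brap, for example, differed by 0.49 ± 0.10 (SE) and was not called. The count depended on single arrays. It was 16 without canagliflozin replicate 3 and 2, Rtkn and Mir672, without canagliflozin replicate 2. It was 0 without canagliflozin replicate 1, 4 or 5, without restriction replicate 1, 2, 3 or 4, or without HFD control replicate 2.

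**Figure D1:**
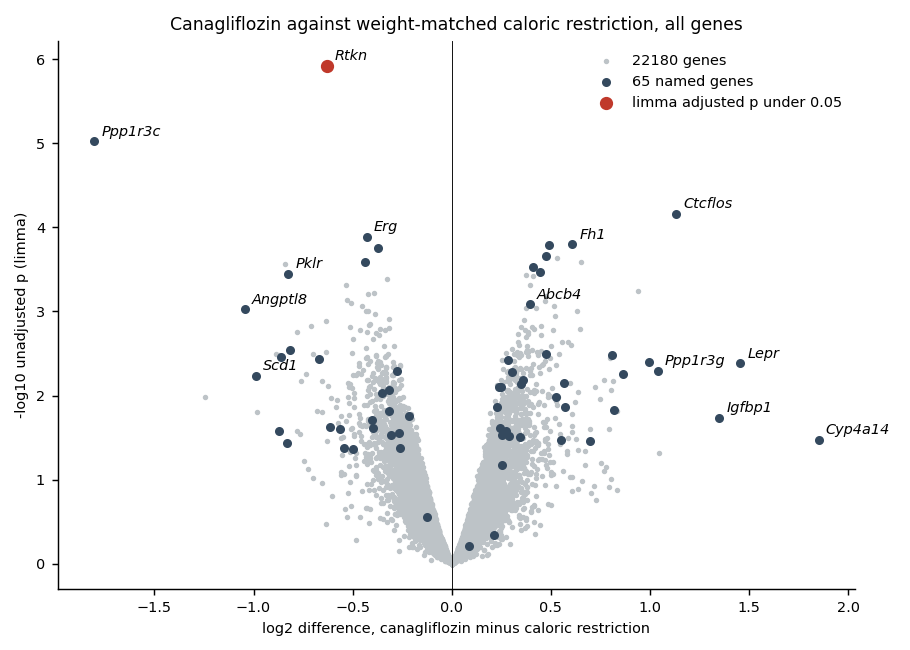
Each point is 1 of 22180 genes, with the log2 difference of canagliflozin minus caloric restriction on the x axis and -log10 of the unadjusted limma p on the y axis; dark points are the 65 genes picked out by rule and the red point is Rtkn. Rtkn stands highest, Ppp1r3c has the next smallest p at a difference of -1.81, and the widest differences to the right belong to Cyp4a14, Lepr and Igfbp1.

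Rtkn encodes rhotekin, a signalling scaffold protein. On canagliflozin arrays 1 to 5 Rtkn measured 4.80, 5.02, 4.75, 4.88 and 4.93. The restriction arrays gave 5.50, 5.49, 5.65, 5.55 and 5.33, and the HFD controls 5.49, 5.33, 5.28 and 5.49. Every drug array lay below every restriction array and every control. Rtkn fell by 0.63 ± 0.087 (SE) on the log2 scale between restriction and canagliflozin, a 1.54-fold lower level (limma adjusted p = 0.0264). Restricted livers and HFD controls differed in Rtkn by 0.11 ± 0.092, and canagliflozin livers stood 0.52 below the controls. The direction held in every fit that included the gene, and the limma adjusted p ranged from 0.0193 to 0.138 as single arrays were left out. Among the fits that left out 1 array, the call ended without canagliflozin replicate 1, 4 or 5, without restriction replicate 1, 2, 3 or 4, or without HFD control replicate 2. It also ended when only the 10 arrays entered the fit (limma adjusted p = 0.134).

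The 250 bases upstream of the first Rtkn start site in the RefSeq table (GRCm38.p6, chr6:83135558-83135807, plus strand; 1 of 3 starts listed) are shown because this was the gene that passed the test. The window holds none of the motifs searched here.

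Rtkn: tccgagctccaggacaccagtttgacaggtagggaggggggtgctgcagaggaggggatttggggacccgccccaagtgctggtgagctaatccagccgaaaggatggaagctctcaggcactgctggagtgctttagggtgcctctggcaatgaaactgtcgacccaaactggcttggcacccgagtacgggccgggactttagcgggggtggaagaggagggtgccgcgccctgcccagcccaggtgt

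The gene with the next smallest p was a glycogen targeting subunit. These proteins tether protein phosphatase 1 to the glycogen particle, where it activates glycogen synthase. Ppp1r3c, the subunit also called PTG, measured 5.47, 5.13, 6.74, 4.81 and 5.44 under canagliflozin and 7.46, 6.997, 7.19, 7.16 and 7.81 under restriction. The groups did not overlap, with canagliflozin replicate 3 the drug array nearest the restricted ones. The HFD controls, at 6.47, 5.88, 7.18 and 6.95, overlapped both groups, with a mean of 6.62 between the group means of 5.52 and 7.32. Ppp1r3c was 3.49-fold lower under the drug by estimate, a log2 difference of -1.81 ± 0.29 (SE), and did not pass the threshold (limma adjusted p = 0.105). Against the HFD controls, which these values share, it stood at -1.10 ± 0.31 under canagliflozin and at 0.70 ± 0.31 under restriction. Without canagliflozin replicate 3 the difference was -2.11 (limma adjusted p = 0.00123).

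Ppp1r3b, the main liver subunit of the same family, measured 8.53, 8.38, 9.69, 8.55 and 8.48 under canagliflozin and 9.74, 9.27, 8.57, 9.53 and 9.59 under restriction. Drug replicate 3 reached the restricted level, and restriction replicate 3 the drug level. Ppp1r3g, a subunit reported to follow fasting and feeding, had the opposite sign. Its values were 5.47, 5.57, 4.24, 6.97 and 5.92 under canagliflozin against 4.69, 4.82, 4.00, 4.59 and 4.88 under restriction. Apart from drug replicate 3, every drug array exceeded every restricted array. The differences were -0.61 ± 0.25 for Ppp1r3b and 1.04 ± 0.32 for Ppp1r3g (limma adjusted p = 0.801 and 0.683). Without drug replicate 3, Ppp1r3g passed the test at 1.39 (limma adjusted p = 0.0426). Over the glycogen list 11 of 13 genes were measured, 3 higher and 8 lower, with a median of -0.09. The enzymes that build and break the polymer had small differences: glycogen synthase Gys2 0.28, liver phosphorylase Pygl -0.18 and branching enzyme Gbe1 -0.10.

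Genes of sugar sensing and glycolysis were mostly lower in value under canagliflozin. Of 11 measured, 8 were lower and 3 higher, with a median of -0.17 beside -0.0032 over all genes, and 2 had an unadjusted p under 0.05, both lower (2.98% of all genes did). Pklr, the liver pyruvate kinase at the end of glycolysis and a known ChREBP target, measured 9.85, 9.73, 10.68, 10.36 and 9.87 under canagliflozin. Restricted livers gave 10.93, 10.74, 10.90, 10.90 and 11.13. The groups did not overlap, though drug replicate 3 came within 0.1 of the lowest restricted array. The difference was -0.82 ± 0.19, or 1.77-fold lower (limma adjusted p = 0.487). Without drug replicate 3 it was -0.97 and passed the test (limma adjusted p = 0.0499). Khk, which phosphorylates fructose, measured 10.11, 9.90, 10.75, 10.44 and 10.09 under the drug and 10.91, 10.42, 10.51, 10.71 and 10.74 under restriction. The groups overlapped in drug replicates 3 and 4, and the difference was -0.40 ± 0.16 (limma adjusted p = 0.801). Mlxipl itself, the gene of ChREBP, differed by -0.23 ± 0.14.

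ChREBP binds paired E-boxes, whose core is CACGTG. The 250 bases upstream of the first listed start (RefSeq, GRCm38.p6) are shown for Ppp1r3c, Khk and Pklr: the gene with the second smallest p and both sugar-sensing genes with an unadjusted p under 0.05. Capitals mark CACGTG, which reads the same on both strands. The windows are chr19:36736605-36736854 on the minus strand for Ppp1r3c, chr5:30921309-30921558 on the plus strand for Khk, and chr3:89135892-89136141 on the plus strand for Pklr, for which 2 starts are listed.

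Ppp1r3c: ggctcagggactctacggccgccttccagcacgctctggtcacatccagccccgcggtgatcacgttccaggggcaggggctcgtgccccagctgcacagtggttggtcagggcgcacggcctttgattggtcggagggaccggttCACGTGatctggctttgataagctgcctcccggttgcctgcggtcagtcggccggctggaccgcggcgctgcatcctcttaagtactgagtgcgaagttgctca

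Khk: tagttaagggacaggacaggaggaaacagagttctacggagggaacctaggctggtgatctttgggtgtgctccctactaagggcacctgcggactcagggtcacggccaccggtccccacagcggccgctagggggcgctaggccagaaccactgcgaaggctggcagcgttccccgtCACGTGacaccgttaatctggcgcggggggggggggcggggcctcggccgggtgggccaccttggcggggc

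Pklr: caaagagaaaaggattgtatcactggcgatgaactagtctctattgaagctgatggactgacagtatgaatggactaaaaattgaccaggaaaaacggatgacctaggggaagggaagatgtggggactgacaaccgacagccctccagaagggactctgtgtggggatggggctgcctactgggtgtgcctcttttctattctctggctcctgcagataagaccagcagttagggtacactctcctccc

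An E-box of these letters stood once in the Ppp1r3c window, once in the Khk window and not in the Pklr window. Among the sugar-sensing genes 2 of 14 promoters held it (Khk and Mlxipl), and among glycogen genes 2 of 10 (Gaa and Ppp1r3c). Among fatty acid synthesis genes 2 of 22 promoters held it (Elovl5 and Slc25a1). Of all 32851 promoters in the table, 6.02% held it. A match of letters is a description of the window. Pklr has 2 listed starts, and which of them the liver uses was not tested. The absence of CACGTG therefore describes only the Pklr window shown. An element that departs from these exact letters would also have been missed.

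Fatty acid synthesis genes were lower in value in the same livers. All 22 listed genes were measured: 18 were lower and 4 higher, and the median was -0.17. An unadjusted p under 0.05 was found in 8, all of them lower (2.98% of all genes did so). None passed adjustment with all arrays. Fasn, the enzyme that builds palmitate, measured 9.28, 8.71, 10.19, 8.31 and 8.84 under canagliflozin and 10.07, 9.999, 9.81, 9.61 and 10.14 under restriction. Drug replicate 3 was above every restricted array, and the other drug arrays were below every restricted array. The difference was -0.86 ± 0.25, or 1.82-fold lower (limma adjusted p = 0.683), and -1.14 without drug replicate 3 (adjusted p = 0.0260). Thrsp, a small protein that promotes lipogenesis, measured 10.33, 10.35, 11.74, 10.15 and 10.81 against 11.69, 11.09, 11.28, 11.49 and 11.93. Drug replicate 3 lay within the restricted range and the other drug arrays lay below it. Its difference was -0.82 ± 0.24 (limma adjusted p = 0.683), and -1.09 without drug replicate 3 (adjusted p = 0.0193).

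Scd1, the desaturase that makes oleate, measured 11.04, 10.63, 12.72, 11.55 and 11.34 under canagliflozin. Under restriction it measured 12.72, 12.13, 11.68, 12.48 and 13.22. The overlap again lay in drug replicate 3, which matched the second highest restricted array, and the difference was -0.99 ± 0.32 (limma adjusted p = 0.683). Srebf1, which encodes SREBP-1c, the insulin-driven regulator of these enzymes, differed by -0.50 ± 0.23, by -0.30 without drug replicate 4 and by -0.73 without drug replicate 3. The other members with an unadjusted p under 0.05 were Acss2, which activates acetate (-0.68), Mid1ip1, which activates acetyl-CoA carboxylase (-0.51), Acaca, that carboxylase (-0.32), and Slc25a1, the citrate carrier (-0.27). The elongases and polyunsaturated desaturases in the list lay near 0: Elovl5 0.11, Elovl6 -0.12, Fads1 -0.05 and Fads2 0.04. Enzymes of triglyceride assembly were also close, with Dgat2 at -0.16, Gpam at -0.13 and Mogat1 at 0.00.

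**Figure D2:**
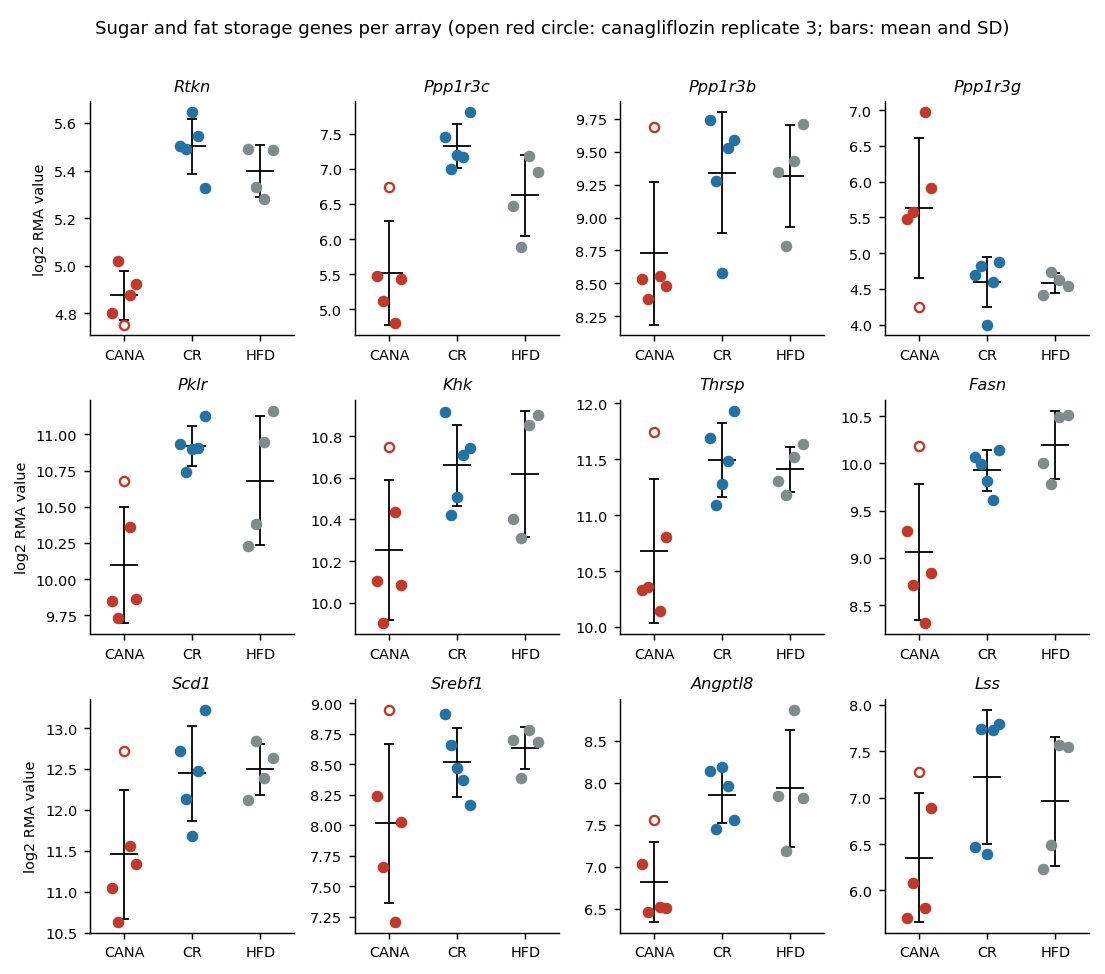
Log2 RMA values on each array for Rtkn and 11 genes of sugar, glycogen, fat and sterol metabolism, with canagliflozin (CANA, 5 arrays), caloric restriction (CR, 5 arrays) and high-fat diet control (HFD, 4 arrays) side by side; horizontal marks and bars are the mean and SD, and the open circle is canagliflozin replicate 3. In Rtkn, Ppp1r3c and Pklr no drug array reaches the restricted arrays, and in Fasn, Thrsp and Ppp1r3b the open circle sits well above the other drug arrays.

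Angptl8, an insulin- and feeding-induced secreted protein that helps inhibit lipoprotein lipase, had the largest difference among lipoprotein genes. It measured 7.03, 6.45, 7.55, 6.52 and 6.51 under canagliflozin and 8.14, 7.45, 8.19, 7.96 and 7.55 under restriction. Drug replicate 3 was the array that crossed into the restricted range. The difference was -1.04 ± 0.26, or 2.06-fold lower (limma adjusted p = 0.614). Apoc3, a brake on the clearance of triglyceride-rich particles, measured 9.30, 8.99, 9.22, 9.26 and 9.07 against 9.52, 9.32, 9.39, 9.40 and 9.28. The groups met at drug replicate 1 and restriction replicate 5, and the difference was -0.22 ± 0.083 (limma adjusted p = 0.791). Of 12 lipoprotein genes measured, 10 were lower and 2 higher, with a median of -0.08. The structural proteins differed little: Apob by -0.01, Mttp by -0.08 and Apoe by -0.03.

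Cholesterol synthesis and uptake was the list with the lowest median. All 16 measured genes of 21 listed were lower in value under canagliflozin, with a median of -0.36 and a range from -0.87 to -0.08. An unadjusted p under 0.05 was found in 2 of them (2.98% of all genes were lower at that p). Lss, lanosterol synthase, measured 5.70, 6.08, 7.28, 5.81 and 6.89 under the drug and 6.47, 7.74, 6.40, 7.73 and 7.79 under restriction. Fdps, which makes farnesyl diphosphate, measured 7.31, 6.80, 8.06, 7.64 and 8.85 against 7.83, 9.08, 7.78, 8.98 and 9.16. In both genes restriction replicates 1 and 3 lay among the drug arrays while restriction replicates 2, 4 and 5 lay high, so the groups overlapped. The differences were -0.87 ± 0.36 for Lss and -0.83 ± 0.37 for Fdps (limma adjusted p = 0.801 and 0.810). Hmgcs1, the synthase ahead of HMG-CoA reductase, differed by -0.60 ± 0.41 and Sqle, squalene epoxidase, by -0.54 ± 0.43. Averaged over the list, drug arrays ranged from -0.68 to 0.39 around the mean of all arrays and restriction arrays from -0.43 to 0.62. Because the genes of this pathway share their regulator SREBP-2, their equal signs do not count as 16 separate observations.

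The sterol response element TCACNCCAC, searched on both strands, stood in 1 of 15 promoters of the list (Hmgcs1) and in 1.05% of all promoters. In the fatty acid synthesis list it stood in 0 of 22 promoters. The Hmgcs1 window (RefSeq, GRCm38.p6, chr13:119690101-119690350, plus strand) is shown with the element in capitals, as the one member where sequence and list met.

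Hmgcs1: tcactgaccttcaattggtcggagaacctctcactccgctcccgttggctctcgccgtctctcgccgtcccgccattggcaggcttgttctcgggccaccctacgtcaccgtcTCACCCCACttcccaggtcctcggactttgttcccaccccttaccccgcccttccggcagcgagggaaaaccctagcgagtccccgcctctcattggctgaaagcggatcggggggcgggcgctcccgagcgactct

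Genes of fat burning were mostly higher in value under canagliflozin. In mitochondrial fatty acid oxidation 16 of 19 were higher with a median of 0.15, and 3 had an unadjusted p under 0.05, all higher (3.07% of all genes did). Acadl, the long-chain acyl-CoA dehydrogenase, differed by 0.25 ± 0.11, Etfa, which passes its electrons on, by 0.26 ± 0.11, and Cpt1a, the gate for fatty acid entry, by 0.25 ± 0.13. The third member under that p was Hadhb (0.36), whose probe set is dim (mean log2 4.13). In peroxisomal and omega oxidation 10 of 12 measured genes were higher, with a median of 0.10.

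Cyp4a14, a fatty acid omega-hydroxylase and one of the most PPARα-responsive genes of mouse liver, measured 9.89, 10.69, 8.94, 12.03 and 10.78 under canagliflozin. Restriction gave 9.62, 8.43, 5.86, 8.10 and 11.07, and the HFD controls 5.40, 6.71, 8.94 and 8.31. Restriction replicates 1 and 5 lay inside the drug range, and the restricted arrays spread over more than 5 log2 units. The difference was 1.85 ± 0.80, 3.61-fold by estimate, with a 95% interval from 0.16 to 3.54 (limma adjusted p = 0.807), and it was 1.16 without restriction replicate 3. Its relative Cyp4a31 measured 7.61, 7.57, 6.68, 8.60 and 7.66 against 6.59, 6.31, 6.47, 6.66 and 7.11. Drug replicate 3 was the only drug array within the restricted range, and the difference was 1.00 ± 0.30 (limma adjusted p = 0.683). Against the HFD controls Cyp4a31 stood at 1.92 under canagliflozin and 0.92 under restriction. These related cytochromes are close in sequence, and how far their probe sets cross-hybridise was not tested.

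The other PPARα targets had the highest median of the 25 pathway lists, at 0.35 over 15 measured genes, 13 of them higher. Of these, 7 had an unadjusted p under 0.05, all higher (3.07% of all genes did). Acot1, a cytosolic acyl-CoA thioesterase, measured 7.10, 7.11, 6.88, 7.72 and 7.06 under canagliflozin and 6.68, 6.17, 5.77, 6.05 and 7.13 under restriction. Restriction replicate 5 alone reached the drug arrays, and the difference was 0.81 ± 0.24 (limma adjusted p = 0.683). Slc22a5, the carnitine importer, measured 7.44, 7.71, 6.46, 7.76 and 7.53 against 6.53, 6.78, 6.75, 6.61 and 7.37. Here drug replicate 3 was the lowest of all 10 arrays, and the difference was 0.57 ± 0.21. Slc27a1, a fatty acid transport protein, differed by 0.53 ± 0.18, and Pdk4, the kinase that shuts off pyruvate dehydrogenase, by 0.80 ± 0.46.

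Fgf21, the fasting hormone of the liver, measured 6.23, 6.99, 5.28, 7.36 and 6.90 under canagliflozin and 6.05, 5.87, 5.27, 5.56 and 6.51 under restriction. The groups overlapped in drug replicates 1 and 3, and the difference was 0.70 ± 0.31 (limma adjusted p = 0.810). The median of these PPARα targets was 0.56 without drug replicate 3, with 14 of 15 higher and none past adjustment, and 0.21 without drug replicate 4. Ppara itself differed by 0.00. Of 7 ketone body genes 5 were measured, 4 of them higher, with a median of 0.04 and no unadjusted p under 0.05. The PPAR response element, read as 2 direct copies of AGGTCA with 1 base between them on either strand, was in none of the promoters of these 3 oxidation lists and in 0.0335% of all promoters.

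Among gluconeogenic genes, the largest difference was that of a regulator. Ppargc1a, the coactivator PGC-1α that turns on glucose output in fasting, measured 7.13, 7.52, 6.66, 8.52 and 8.01 under canagliflozin and 6.56, 6.74, 6.08, 7.26 and 6.89 under restriction. Drug replicates 1 and 3 lay inside the restricted range, and the difference was 0.86 ± 0.27, or 1.82-fold (limma adjusted p = 0.683). Pck1, which commits carbon to glucose, measured 12.88, 13.05, 12.73, 13.01 and 12.79 against 12.48, 12.72, 12.50, 12.82 and 12.74, a difference of 0.24 ± 0.098. G6pc, which releases free glucose, measured 11.39, 11.81, 11.48, 12.12 and 12.06 against 11.23, 11.29, 11.37, 11.74 and 11.50, a difference of 0.34 ± 0.15. Both enzymes overlapped between the groups (limma adjusted p = 0.801 and 0.807). With Got1, the aspartate aminotransferase of the cytosol (0.46), these were the 4 of 15 members with an unadjusted p under 0.05, all higher (3.07% of all genes). The list as a whole had 9 higher and 6 lower and a median of 0.04.

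Genes under insulin and FOXO control included the largest positive differences after Cyp4a14. Lepr, the leptin receptor, measured 6.52, 7.13, 3.96, 7.19 and 5.97 under canagliflozin and 4.67, 4.14, 4.47, 4.71 and 5.51 under restriction. The HFD controls gave 4.35, 3.94, 4.11 and 4.60, near the array medians of 4.07 to 4.13. Drug replicate 3 was the lowest of the 10 arrays, while the other drug arrays were above every restricted array. The difference was 1.45 ± 0.44, or 2.74-fold (limma adjusted p = 0.683), and 2.00 without drug replicate 3 (adjusted p = 0.00709). Igfbp1, a secreted IGF-binding protein that insulin represses, measured 10.39, 11.36, 8.71, 12.49 and 10.68 against 8.69, 8.63, 8.74, 10.29 and 10.54. The groups overlapped, with restriction replicates 4 and 5 high and drug replicate 3 low, and the difference was 1.35 ± 0.52 (limma adjusted p = 0.801). The controls lay at 8.27, 8.92, 8.65 and 8.72 for this gene.

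Irs2, the insulin receptor substrate that rises in fasting liver, differed by 0.63 ± 0.27, and Pik3r1, the regulatory subunit of PI3-kinase, by -0.35 ± 0.12. The insulin receptor Insr (0.08) and the kinases Akt1 (0.00) and Akt2 (-0.07) lay near 0. Over 18 genes the list had 8 higher and 10 lower with a median of 0.00. An unadjusted p under 0.05 was found in 5, 4 of them higher (6.05% of all genes had it in either direction). The FOXO core GTAAACA, on either strand, was in 1 of 23 promoters of this list (Akt1) and in 3.17% of all promoters.

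**Figure D3:**
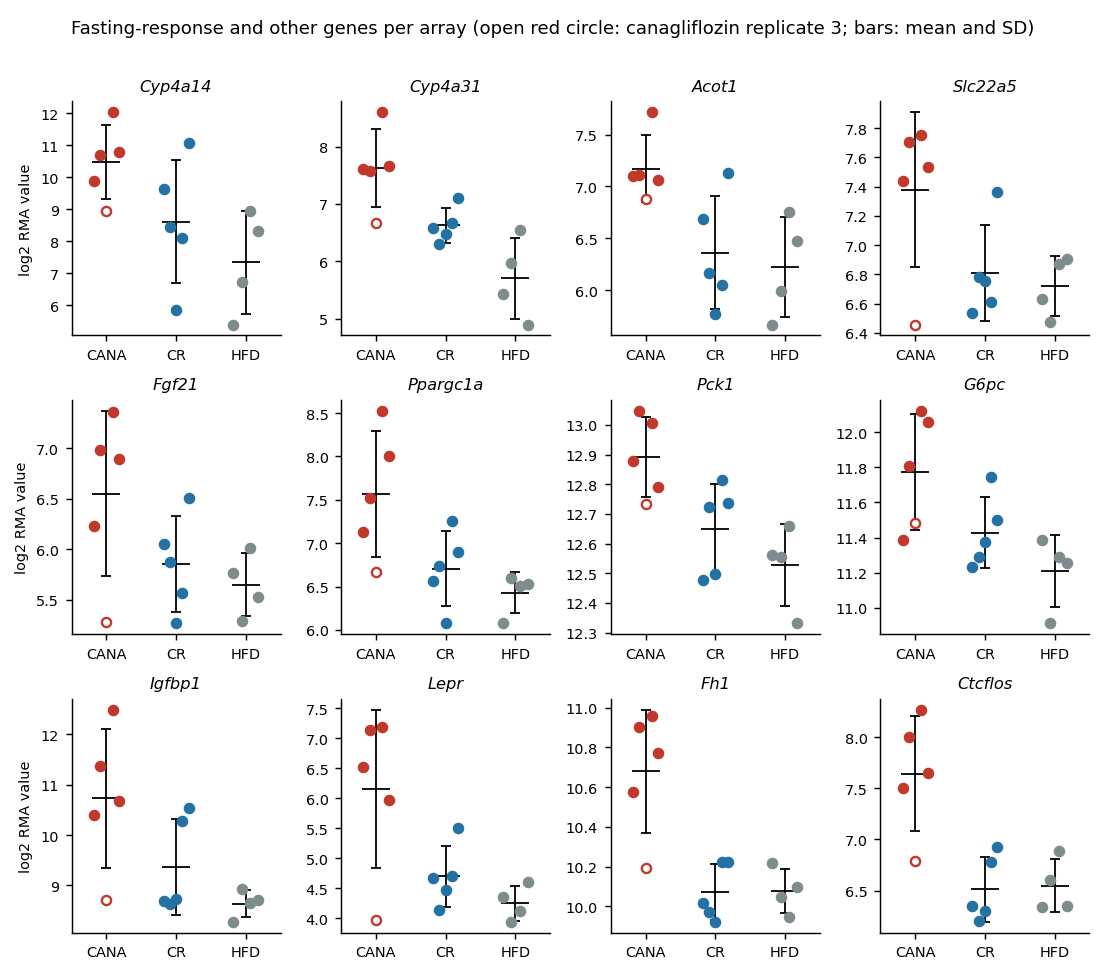
Log2 RMA values on each array for 10 genes of fat oxidation, glucose output and insulin response and for Fh1 and Ctcflos, with canagliflozin (CANA, 5 arrays), caloric restriction (CR, 5 arrays) and high-fat diet control (HFD, 4 arrays); horizontal marks and bars are the mean and SD, and the open circle is canagliflozin replicate 3. The filled drug points of Lepr, Fh1 and Ctcflos lie above all restricted arrays, while the open circle lies among the restricted arrays for Fh1 and Ctcflos and below them for Lepr.

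In the tricarboxylic acid cycle, 10 of 16 genes were higher, with a median of 0.07. An unadjusted p under 0.05 was found in 3, all higher (3.07% of all genes did so). Fh1, fumarase, measured 10.57, 10.90, 10.19, 10.96 and 10.77 under canagliflozin and 10.02, 9.97, 9.92, 10.22 and 10.22 under restriction. Drug replicate 3 alone lay in the restricted range, and the difference was 0.61 ± 0.13 (limma adjusted p = 0.487), or 0.73 without that array (adjusted p = 0.0148). Sucla2 and Suclg1, subunits of succinyl-CoA ligase, differed by 0.31 ± 0.096 and 0.25 ± 0.082, and in both every drug array lay above every restricted array. Their limma adjusted p was 0.683 and 0.706. The lowest value of the list was that of citrate synthase, Cs (-0.23). The respiratory chain had 21 of 25 genes higher, none with an unadjusted p under 0.05, and a median of 0.06.

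Amino acid breakdown and the urea cycle had 16 of 22 measured genes higher, with a median of 0.09. An unadjusted p under 0.05 was found in 5, in either direction (6.05% of all genes had it). Hgd, which opens the ring of homogentisate in tyrosine breakdown, measured 11.62, 11.73, 11.46, 11.58 and 11.49 under canagliflozin and 11.43, 11.29, 11.28, 11.36 and 11.32 under restriction. The groups did not overlap, and the difference was 0.24 ± 0.080 (limma adjusted p = 0.706). Cth, which makes cysteine from cystathionine, differed by 0.35 ± 0.12. Nags, whose product switches on the urea cycle, differed by -0.32 ± 0.12. The urea cycle enzymes Cps1 (0.02), Otc (-0.02) and Arg1 (0.09) lay near 0.

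Bile acid genes went both ways, in synthesis and in transport. Abcb4, the pump that puts phosphatidylcholine into bile, measured 10.05, 10.25, 9.71, 10.09 and 9.95 under canagliflozin and 9.58, 9.76, 9.63, 9.51 and 9.62 under restriction. Drug replicate 3 lay below restriction replicate 2, and the remaining drug arrays lay above all restricted ones. The difference was 0.39 ± 0.097 (limma adjusted p = 0.614). Cyp8b1, the hydroxylase that directs synthesis to cholic acid, differed by 0.55 ± 0.24, and Nr0b2, the repressor SHP, by -0.54 ± 0.25. Cyp7a1, the rate-limiting enzyme of the pathway, differed by 0.21 ± 0.28, with a range from 0.058 to 0.44 as single arrays were left out. Across 17 genes 6 were higher and 11 lower, with a median of -0.04.

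Among lipid droplet genes 12 of 17 were higher, with a median of 0.17 that was 0.083 without canagliflozin replicate 4. G0s2, an inhibitor of the lipase ATGL, measured 8.41, 8.42, 7.04, 8.34 and 8.40 under canagliflozin and 8.07, 6.76, 6.99, 6.88 and 7.81 under restriction. Drug replicate 3 lay apart from 4 closely spaced drug arrays, and the difference was 0.82 ± 0.30 (limma adjusted p = 0.770). A dimmer G0s2 probe set differed by 0.18, and the average of both by 0.50. Plin2, the droplet coat protein, differed by 0.29 ± 0.12 and Fabp4, a fatty acid carrier best known from adipocytes and macrophages, by 0.57 ± 0.19. Of 7 measured adipocyte markers, Fabp4 among them, 5 were higher, with Plin1 at 0.27, Adipoq at -0.03 and Lep at -0.23. The mean level of those markers was 4.47 to 4.84 on drug arrays and 4.42 to 4.68 on restricted arrays. Macrophage markers were higher in value in 10 of 12, with a median of 0.20 and no unadjusted p under 0.05, and the median was 0.046 without restriction replicate 5. Their mean level was 6.82 to 7.31 against 6.37 to 7.15. The part of these cells in the Fabp4 value was not tested.

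**Figure D4:**
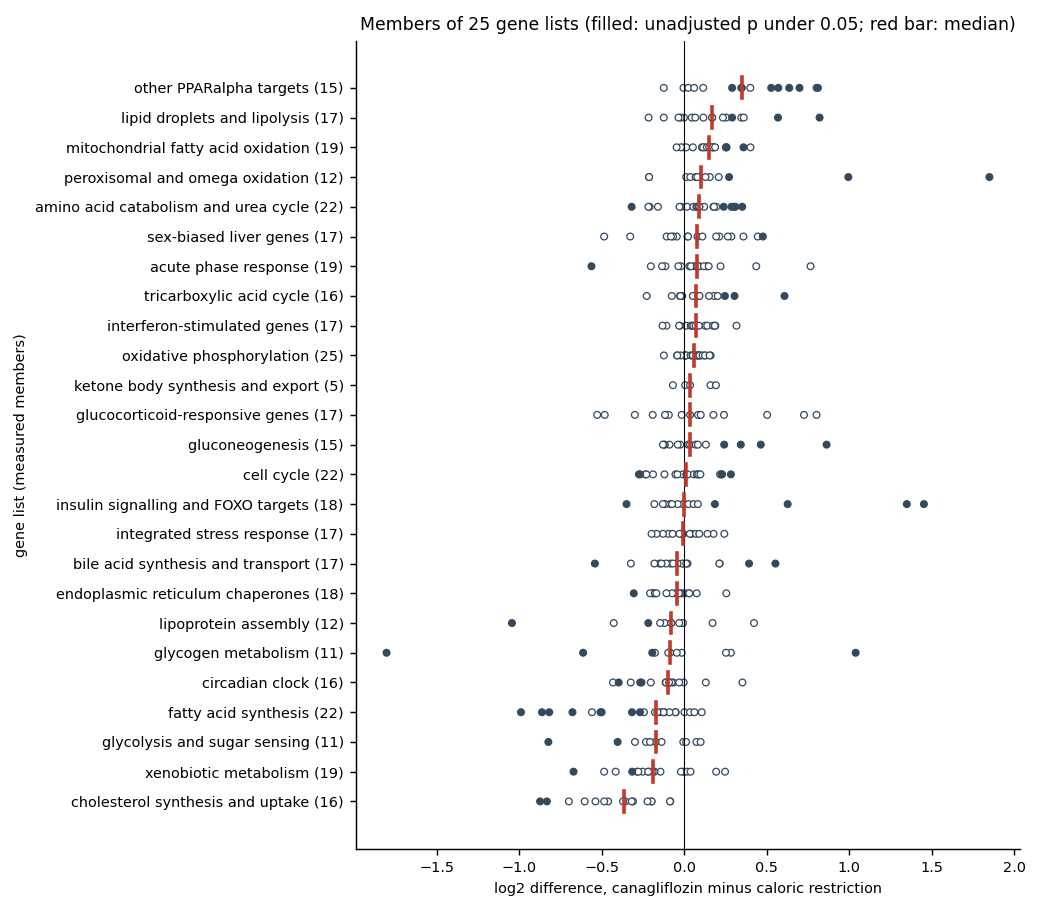
Each row is 1 of 25 pathway lists with its number of measured genes; circles are genes at their log2 difference of canagliflozin minus caloric restriction, filled where the unadjusted limma p is under 0.05, and red bars are medians. Medians run from -0.36 for cholesterol synthesis to 0.35 for the other PPARα targets, and most lists straddle 0.

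Clock genes were lower in value in 14 of 16, with a median of -0.10, and 3 had an unadjusted p under 0.05, all lower (2.98% of all genes did). They were Bhlhe40 (-0.40 ± 0.16), a repressor that also responds to feeding, the output factor Tef (-0.27 ± 0.11) and Per3 (-0.26 ± 0.12), a period gene. Among core members, Arntl differed by -0.09, Nr1d1 by -0.07 and Cry1 by 0.00, in a list that ran from -0.43 to 0.35. The labels do not give the hour of tissue collection. The E-box CACGTG, through which the clock also acts, was in 6 of 20 promoters of this list and in 6.02% of all promoters. Those promoters belong to Bhlhe41, Ciart, Cry1, Per1 and Tef, of which only Tef had an unadjusted p under 0.05.

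Drug-metabolising genes were lower in value in 15 of 19, with a median of -0.19, which was -0.065 without restriction replicate 1. Ces2a, a carboxylesterase that also hydrolyses acylglycerols, measured 9.52, 9.61, 9.58, 9.16 and 9.39 under canagliflozin and 9.70, 9.86, 9.74, 9.81 and 9.75 under restriction. The groups did not overlap, and the difference was -0.32 ± 0.11 (limma adjusted p = 0.709). Cyp2c55, a cytochrome induced by many drugs, differed by -0.67 ± 0.20 on its brighter probe set and by 0.41 on a dimmer one, so its sign depends on the probe set. Canagliflozin arrays did not carry higher values of the classical inducible genes: Cyp2b10 differed by -0.42, Cyp3a11 by -0.14 and Cyp2c29 by -0.29.

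No gene of the stress programmes passed the test. Of 18 chaperone and folding genes of the endoplasmic reticulum 13 were lower, with Xbp1, their transcription factor, at -0.31 ± 0.13, or -0.19 without drug replicate 4. The integrated stress response had 7 higher and 10 lower of 17 and a median of -0.01, with Atf4 at 0.14 and Asns at 0.07. Glucocorticoid-responsive genes had 9 higher and 8 lower of 17, and interferon-stimulated genes 13 higher of 17 with a median of 0.07. None in these last 3 lists had an unadjusted p under 0.05. In the acute phase list 13 of 19 were higher. Hamp, the iron hormone hepcidin, measured 13.27, 11.85, 13.09, 12.45 and 13.56 under canagliflozin and 13.44, 13.30, 13.48, 13.66 and 13.15 under restriction, a difference of -0.56 ± 0.23 that was -0.31 without drug replicate 2.

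Sex-biased and cell cycle genes completed the lists. Mup21, a major urinary protein, differed by 0.48 ± 0.14 and was the 1 of 17 sex-biased genes with an unadjusted p under 0.05 (6.05% of all genes). Among 22 cell cycle genes the signs were mixed, with Top2a at 0.28 and Mki67 at 0.23, both from dim probe sets, Mcm5 at -0.27 and a median of 0.01. The drug's kidney target Slc5a2 differed by -0.13 ± 0.11 and its intestinal relative Slc5a1 by 0.09 ± 0.17. Their mean log2 values were 4.29 and 2.97, beside array medians of 4.07 to 4.13. Both were thus read from dim probe sets, Slc5a2 near the array median and Slc5a1 below it. Slc5a1 changed sign, to -0.058, without canagliflozin replicate 3 and, to -0.012, without restriction replicate 2.

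Leaving out 1 array moved the median by over 1.5 times, or turned its sign, in 21 of the 25 lists. The lists of fatty acid synthesis, sugar sensing and glycolysis, cholesterol synthesis and mitochondrial oxidation were the 4 that stayed within that range. A ratio is easily passed where the median itself lies near 0, as for insulin signalling (-0.0042) and cell cycle (0.014). Averaging each list on each array showed how the arrays lined up. For fatty acid synthesis the drug arrays stood at -0.30, -0.38, 0.17, -0.22 and -0.18 around the mean of all 14 arrays. Restriction gave 0.18, 0.05, -0.12, 0.09 and 0.36. Drug replicate 3 and restriction replicate 3 each stood on the other group's side. For the other PPARα targets the drug arrays stood at 0.17, 0.40, -0.30, 0.72 and 0.27 and the restricted ones at 0.02, -0.14, -0.37, -0.33 and 0.25. Restriction replicate 5 lay among the drug arrays in this list, while in fatty acid synthesis it was the highest restricted array.

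**Figure D5:**
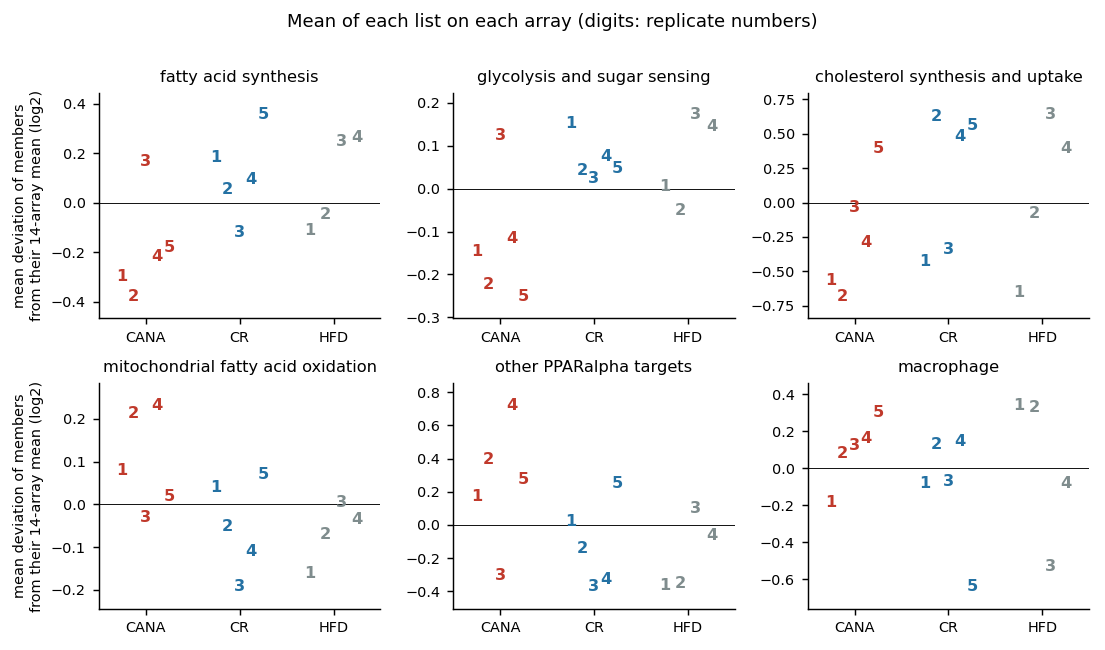
Mean deviation of the members of 6 lists from their 14-array mean, in log2 units, on each array; digits are replicate numbers, and columns are canagliflozin (CANA), caloric restriction (CR) and high-fat diet control (HFD). Canagliflozin replicate 3 lies highest of the drug arrays in fatty acid synthesis (0.17) and lowest in the other PPARα targets (-0.30), and restriction replicate 5 lies lowest of all in the macrophage markers (-0.64).

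Several genes outside the lists had small p values. Of the higher ones, Ctcflos, a long non-coding RNA gene, measured 7.50, 8.01, 6.79, 8.27 and 7.65 under canagliflozin and 6.35, 6.20, 6.31, 6.78 and 6.93 under restriction. Drug replicate 3 lay in the restricted range, and the difference was 1.13 ± 0.22, or 2.19-fold (limma adjusted p = 0.487), reaching 1.35 without that array (adjusted p = 0.00709). Brap, a ubiquitin ligase that tunes Ras signalling, measured 9.62, 9.69, 9.11, 9.59 and 9.45 against 8.99, 8.95, 9.05, 9.01 and 9.03. Its groups did not overlap, and the restricted arrays lay within 0.10 of each other. The difference was 0.49 ± 0.10, and 0.58 without drug replicate 3 (limma adjusted p = 0.487 and 0.0167). Tmed5, a cargo receptor of the early secretory pathway, differed by 0.45 ± 0.10, and by 0.53 without drug replicate 3 (limma adjusted p = 0.487 and 0.0357).

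Pawr, a pro-apoptotic regulator, differed by 0.48 ± 0.10 and Endou, an endoribonuclease read from a dim probe set, by 0.41 ± 0.091. In Tmed5, Pawr and Endou every drug array lay above every restricted array. On the lower side, Erg, an endothelial transcription factor, measured 5.31, 5.45, 5.46, 5.65 and 5.22 under canagliflozin and 5.99, 5.83, 5.80, 5.83 and 5.79 under restriction. The groups did not overlap, and the difference was -0.43 ± 0.088 (limma adjusted p = 0.487). Beside it, 4 of 10 endothelial markers were higher and 6 lower, with a median of -0.04 and mean levels of 7.38 to 7.73 against 7.38 to 7.77. Ess2, a splicing-associated protein, differed by -0.37 ± 0.078 and Il20ra, a cytokine receptor chain read from a dim probe set, by -0.44 ± 0.096, again without overlap. Ess2 in the HFD controls (5.98, 5.93, 6.07 and 6.13) lay near the drug arrays (5.89 to 6.04) and below every restricted one (6.22 to 6.42).

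Without canagliflozin replicate 3, 16 genes passed the limma test, 10 higher and 6 lower, and 1558 had an unadjusted p under 0.05. This fit was one of those leaving out each array in turn, and the array was singled out after its values were seen. Across all of those fits the limma adjusted p reached 0.470 for Ppp1r3c and 0.791 for Pklr. It reached 0.882 for both Lepr and Fasn. Without canagliflozin replicate 4 the difference was -1.63 for Ppp1r3c and -0.67 for Fasn. The lower genes were Ppp1r3c, Rtkn, Thrsp, Fasn, Pklr and Akr1c20, an aldo-keto reductase (-0.90). The higher genes were Lepr, Ctcflos, Fh1, Brap, Tmed5, Ppp1r3g, Fbf1 (1.12), 9430037G07Rik (1.14), Tbc1d8 (0.88) and Csrp2 (0.52). Of these 16 genes, 11 were already among the 65 picked out by rule with all arrays. Others of the 65 stayed uncalled without that array. Among them were Slc22a5 (0.80, limma adjusted p = 0.0660), Scd1 (-1.31, 0.0815), Angptl8 (-1.23, 0.110) and Igfbp1 (1.85, 0.211). The median of the fatty acid synthesis list was then -0.24 with 19 of 22 lower, and that of cholesterol synthesis -0.40 with 16 of 16 lower. Hepatocyte markers had a median of -0.029 without it and -0.036 with it.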

How the data were processed

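Liver total RNA was hybridised to Affymetrix whole-transcript arrays from 250 ng per sample. Per the submitters' processing notes, the authors used Affymetrix Expression Console with RMA, and the deposited table holds log2 values, already background-corrected and normalized. Not given in the sources used here are its version, the probe library files and any genome build. With arrays, the number of samples limits the precision.

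Of 41345 probe sets, 23521 carried 1 gene symbol in the platform annotation, 1814 several and 16010 none. Probe sets with 1 symbol were used, and the one with the highest mean over all 14 arrays stood for its gene (1082 genes had more than 1). Group means of all 3 groups were fitted with limma 3.58.1 (lmFit, eBayes) in R 4.3.3, with p-values adjusted by Benjamini-Hochberg over 22180 genes at a threshold of 0.05. Errors after ± are SE of the difference. The script was tested on simulated data.

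Named genes were the 6 smallest p values in each direction, up to 3 per pathway list with an unadjusted p under 0.05, and a fixed set of metabolic genes; other list members are named for their role, chosen after their values were seen. The members and the 25 pathway and 12 marker lists were chosen with earlier results of these data known. Of 448 listed pathway genes, 399 were measured. Lists are described by counts and medians, with no set test. Promoter windows came from RefSeq (GRCm38.p6).

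Alternatives were the 10 arrays alone, filters at mean log2 of 5 and 6, median centring, cyclic loess, trended and robust variances, array weights, probe set averages, all probe sets, other thresholds, the replicate number as a block, position in the deposited order as a covariate, and leaving out each array.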

Additional observations from a re-analysis of the deposited data

Results flagged for a closer look

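In 10 of 195 groups of 4 or 5 arrays examined for the genes described, 1 array lay far from the rest of its group by Dixon's criterion, which chance gives in about 1 group in 20. Of these, 3 were canagliflozin replicate 3. It was low for the carnitine importer Slc22a5 at 6.457, with the nearest drug array at 7.442, and for G0s2 at 7.04 beside 8.337. It was high for the glycogen targeting subunit Ppp1r3b at 9.689 beside 8.554.

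Canagliflozin replicate 2 was high for Endou at 3.65 beside 3.366 and for Acadl at 10.45 beside 10.17. Canagliflozin replicate 4 was high for Acot1 at 7.717 beside 7.111. Restriction replicate 1 was high for Erg at 5.988 beside 5.832, and restriction replicate 3 was low for Slc5a2 at 3.986 beside 4.406. Among the HFD controls, replicate 1 was low for Per3 at 6.825 beside 7.075, and replicate 4 was high for Cyp2c55 at 6.274 beside 5.973.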

How the results depend on the processing

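The count of genes called, 1 with all arrays, was 0 with only the 10 arrays and 0 under a minimum mean log2 of 6, a filter that removes Rtkn, whose mean is 5.25. As single arrays were left out it ranged from 0 to 16. It stayed at 1, Rtkn, under the other filter, both normalizations, the other variance settings, array weights, both probe set rules, both thresholds and the position covariate. Same-numbered arrays of the drug and restriction groups deviated together with correlations of 0.16, 0.050, -0.015, 0.045 and 0.080, and 3 of 5 drug arrays matched best with their own number. The labels state no pairing, and these values do not settle whether the numbers pair the samples. The block also used the numbers of the HFD controls. From HFD control replicate 3 on, the controls stood in the deposited order beside drug and restriction arrays of a different number. The block placed these controls by number and not by that order. A block by deposited order was not tested. With the replicate block 2 genes were called, Ppp1r3c (-1.81) and Angptl8 (-1.04), both at a limma adjusted p of 0.0351, and Rtkn had 0.0982. Of 1536 values of named genes under alternatives, 1512 kept direction and side of the threshold, 10 lost the call, 12 gained it, and 2 reversed: Slc5a1 was -0.012 without restriction replicate 2 and -0.058 without canagliflozin replicate 3, within a range up to 0.22 without canagliflozin replicate 2. Of 855 list medians, 47 changed sign, and 9 moved by at least the SD of the list mean between arrays within the drug and restriction groups. The cause of these changes was not tested.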

Other observations

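Some genes outside the lists also stood out, and these were chosen after their values were seen. None passed the limma test. Sik1, a kinase that restrains the fasting programme set off by glucagon, averaged 8.06 under canagliflozin and 7.24 under restriction, a log2 difference of 0.81 ± 0.26 (SE). Fgl1, a protein secreted by hepatocytes, differed by 0.83 ± 0.31. On the lower side, Aacs, which turns acetoacetate into a lipid precursor in the cytosol, averaged 6.78 against 7.51, a difference of -0.74 ± 0.23. Ces1g, a lipid-hydrolysing carboxylesterase, differed by -0.78 ± 0.21, and Rgs16, a regulator of G-protein signalling in liver, by -0.76 ± 0.32. In all of these the groups overlapped.

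Other genes had smaller differences with no overlap between the groups, an arrangement found in 0.437% (above) and 0.491% (below) of all genes. Gamt, which completes creatine synthesis, was below in every drug array with a difference of -0.32 ± 0.095, and Pemt, which methylates phosphatidylethanolamine to phosphatidylcholine, with -0.26 ± 0.079. Both enzymes use S-adenosylmethionine. Foxa2, a liver transcription factor, differed by -0.34 ± 0.13 and Hsd17b2, a steroid dehydrogenase, by -0.43 ± 0.14. Above in every drug array were Slc25a15, the mitochondrial ornithine carrier (0.32 ± 0.093), the mitochondrial chaperone Hspd1 (0.27 ± 0.080), the peroxisomal protein Hsdl2 (0.38 ± 0.10) and Carmil1, a regulator of actin capping (0.41 ± 0.093).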
